A study of Mus musculus with 298 samples.

Results

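Day neurons of the mouse suprachiasmatic nucleus (SCN) labelled cFOS+ were set against day neurons labelled cFOS-. The cells were chosen by their labels: time of day was day, and firing was active or silent. This gave 68 cFOS+ and 59 cFOS- cells, together 127 cells or 42.6% of the series, and 9 depolarized day cells (2 cFOS+ and 7 cFOS-) were left out. The SCN is the hypothalamic clock, and the series asks how gene expression goes with firing and cFOS in its neurons, with a phosphate transporter in cells with vasoactive intestinal peptide (VIP) named in its title. Mice were kept in a light-dark cycle, slices for the day cells were cut close to lights on, and each neuron was recorded by patch clamp for some minutes before its cytoplasm was drawn into the pipette for sequencing. Each deposited sample is 1 cell, and several cells could share a slice. The strain, genotype, sex and age of the mice and the way the cFOS label was given are not stated in the sources used here, so no group is known to differ by genotype or agent.

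Of the cFOS+ cells 51 were active and 17 silent, and of the cFOS- cells 27 were active and 32 silent. Active cells made up 75% (63.0 to 84.7) of the cFOS+ cells and 45.8% (32.7 to 59.2) of the cFOS- cells, so label and firing class were entangled, and each contrast is also given within active and within silent cells. Depth was 3222140 to 14129853 counted reads a cell (median 6274324), and 2367 to 8420 genes were detected per cell (median 4535). The summed level of 12 neuron markers was 1710 CPM or more in every cell, where CPM is the count per 1000000 reads of the cell or of the summed cells. No animal or slice is named, so each side is 1 sample without replicates: no test between the sides was possible, intervals of CPM (exact Poisson) and of shares (exact Clopper-Pearson) are at the 95% level, and they cover the counting of reads or of cells only.

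The protein cFOS is made from Fos, an immediate early gene that neurons switch on within minutes of strong synaptic input, calcium entry or cyclic AMP signalling, and it pairs with JUN proteins to form the transcription factor AP-1. In the SCN, light and peptide signals induce it. VIP neurons of the ventral SCN receive the input from the eye, VIP acts on its receptor VIPR2 across the nucleus, and neuromedin S, arginine vasopressin and prokineticin 2 are further peptides by which SCN cells signal to each other and to the rest of the brain.

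The 250 bases before the annotated starts of 4 genes are shown because these genes carry the label and its main contrasts: Fos, which encodes the labelled protein, Vip and Nms, higher in cFOS+ cells, and Vipr2, higher in cFOS- cells. They are from RefSeq (GRCm38.p6), each on the plus strand, at chr12:85473640-85473889, chr10:5638968-5639217, chr1:38938899-38939148 and chr12:116077476-116077725. Capitals mark matches on either strand to TGACG, the core to which cyclic AMP response factors bind, TGANTCA, the AP-1 site, and CACGTG, the E-box of the clock factors.
Fos: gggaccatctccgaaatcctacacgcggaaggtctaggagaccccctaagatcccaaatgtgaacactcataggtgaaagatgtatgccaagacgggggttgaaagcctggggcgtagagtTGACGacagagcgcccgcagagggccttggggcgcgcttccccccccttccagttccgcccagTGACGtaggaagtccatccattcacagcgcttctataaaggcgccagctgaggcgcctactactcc
Vip: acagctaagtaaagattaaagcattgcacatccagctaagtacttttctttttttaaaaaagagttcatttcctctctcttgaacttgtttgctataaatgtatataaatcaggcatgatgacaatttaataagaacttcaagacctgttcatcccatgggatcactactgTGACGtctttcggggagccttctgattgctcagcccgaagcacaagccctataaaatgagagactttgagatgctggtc
Nms: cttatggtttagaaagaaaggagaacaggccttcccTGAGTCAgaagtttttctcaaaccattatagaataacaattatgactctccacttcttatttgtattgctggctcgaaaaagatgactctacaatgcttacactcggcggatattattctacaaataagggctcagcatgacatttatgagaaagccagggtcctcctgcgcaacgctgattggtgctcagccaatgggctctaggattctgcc
Vipr2: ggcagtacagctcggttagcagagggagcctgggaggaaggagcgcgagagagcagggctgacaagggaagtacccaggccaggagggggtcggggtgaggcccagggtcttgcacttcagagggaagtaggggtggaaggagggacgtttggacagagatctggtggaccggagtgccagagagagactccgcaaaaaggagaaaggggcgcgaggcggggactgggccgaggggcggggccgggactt
The letters TGACG stood 129 to 125 and 66 to 62 bases before the Fos start, and 79 to 75 bases before the Vip start. An AP-1 match stood 214 to 208 bases before the Nms start, and the Vipr2 window held none of the 3 motifs. Of 27025 annotated promoters of this length, 17.9% held TGACG, 6.87% an AP-1 match and 6.05% an E-box, so single matches are common and are given as a description of the windows.

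Fos transcript was set beside the label first, and it did not follow the label. The label bears the name of the protein, and how and when it was given is not stated. Transcript at the time of collection therefore cannot check the label. Fos summed over the cFOS+ side was 2468 CPM (2463 to 2472), below the 2984 CPM (2979 to 2990) of the cFOS- side. The log2 ratio was -0.27, where every ratio is of CPM + 1 in cFOS+ over cFOS- cells. Single cells ran from 0 to 11175 CPM (median 1371) in cFOS+ and from 0 to 12735 CPM (median 2174) in cFOS- cells. The groups overlapped over nearly their whole range: 36 of 59 cFOS- cells (61.0%, 47.4 to 73.5) lay above the cFOS+ median, and 8 cFOS+ and 4 cFOS- cells were below 10 CPM. Within active cells the log2 ratio was -0.24, and within silent cells -0.52. It was -0.76 for lower and 0.21 for higher cell numbers (split at S388, the median cell), so the sign turned between those sets. The label below is therefore used as a label, and not as a measure of Fos transcript.

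**Figure D1:**
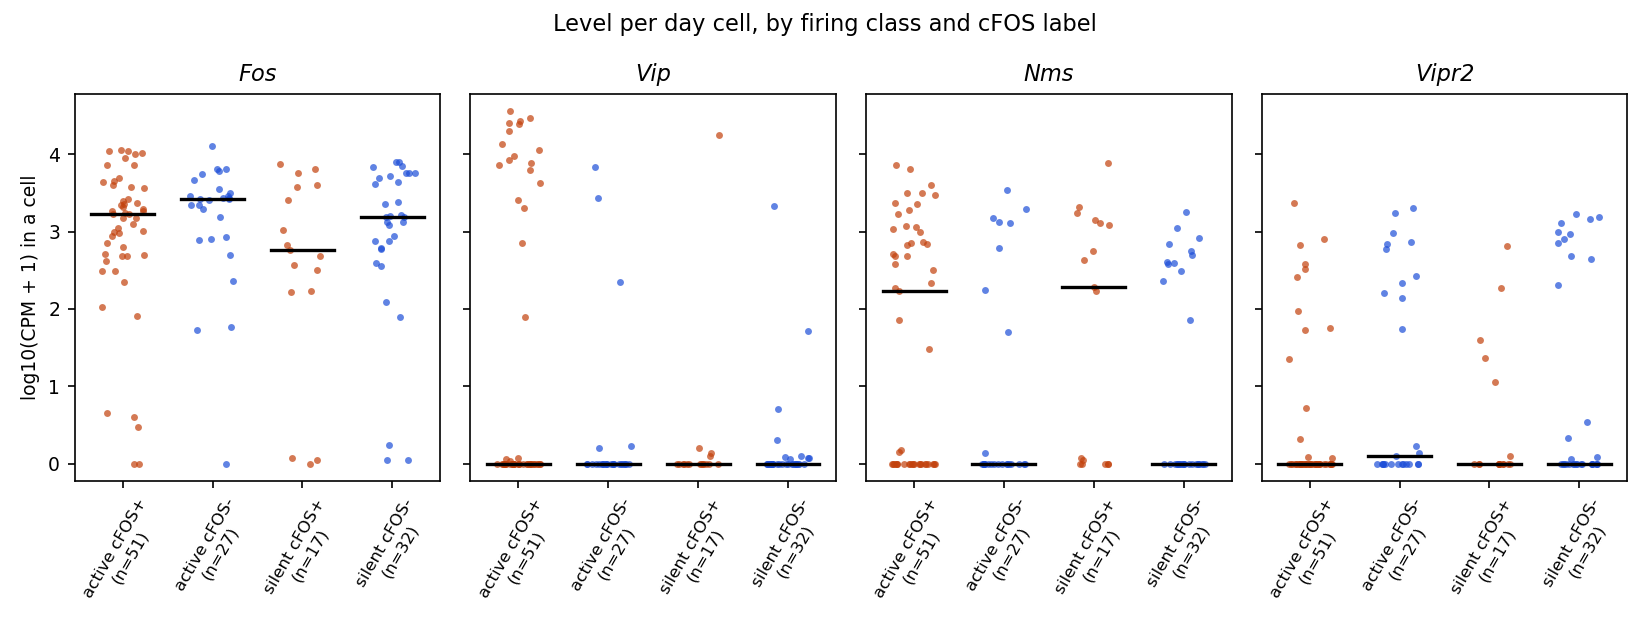
Level of Fos, Vip, Nms and Vipr2 in each of the 127 day cells, as log10 of CPM + 1, in active and silent cells labelled cFOS+ (orange) or cFOS- (blue), with black bars at group medians. Fos spans the same range under both labels, Vip at 100 CPM or more is found mostly in active cFOS+ cells (17 of 51 at 100 CPM or more), and Vipr2 at that level is more frequent under cFOS- (21 of 59 against 8 of 68 cells).

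The other immediate early genes, a list of transcription factors, phosphatases and secreted factors that activity induces, were split about evenly between the labels. Of 40 measured members (5 CPM or more in one side), 22 were higher in cFOS+ cells, with a median log2 ratio of 0.13, beside 48.6% of all 11855 genes at that level and a median of -0.03. Within active cells 19 were higher, beside 52.4% of all genes, and within silent cells 22, beside 45.6%. In turn, 15 of 40 were higher (median -0.42) without the day cells S327 to S421, the longest run of day cells in number. Egr1, a zinc finger transcription factor, was at 2218 against 1661 CPM, and Junb, an AP-1 partner of FOS, at 691 against 708 CPM. Across the 127 cells, Fos transcript ranked with Junb (Spearman's rho 0.65), Egr1 (0.65), Dusp1 (0.60) and Nr4a1 (0.59), the highest of the members compared. Some others lay near 0, among them Fosl1 (0.10), Bdnf (0.06), Dusp4 (0.06) and Dusp5 (-0.10). These values are a description over cells that can share a slice and differ in depth.

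Members of that list did stand apart in single cases. Fosl1, a FOS relative that also forms AP-1, was at 44.1 against 10.4 CPM and at 10 CPM or more in 17 of 68 cFOS+ and 4 of 59 cFOS- cells (log2 1.98, active 3.48, silent 1.07). Dusp5, a phosphatase of nuclear ERK, was at 30.3 against 7.61 CPM (1.86, active 2.37, silent 0.81). In the other direction Bdnf, the activity-induced neurotrophin, was at 4.73 against 27.99 CPM and at 10 CPM or more in 2 cFOS+ and 10 cFOS- cells (-2.34, with -0.65 for lower and -5.36 for higher cell numbers). Dusp4, a related phosphatase, was at 16.4 against 43.6 CPM (-1.36), but at -0.0071 for higher cell numbers. So the members past 2-fold lay on both sides, 5 on the cFOS+ side and 4 on the cFOS- side, beside 12.1% and 14.2% of all genes at 5 CPM or more.

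Among the peptides, Vip set the cFOS+ cells apart most. Pooled Vip was 3187 CPM (3182 to 3192) in cFOS+ and 260.3 CPM (258.7 to 261.8) in cFOS- cells, 12.2-fold higher (log2 3.61). The transcript was nearly all-or-none: 1 cell of each label lay between 10 and 100 CPM, and 43 of 68 cFOS+ and 45 of 59 cFOS- cells had no Vip read. At 100 CPM or more stood 18 of 68 cFOS+ cells (26.5%, 16.5 to 38.6) and 4 of 59 cFOS- cells (6.78%, 1.88 to 16.5). Among these cells the lowest, median and highest levels were 707, 10345 and 36050 CPM with the cFOS+ label, and 221, 2427 and 6858 CPM with the cFOS- label. The cFOS+ side thus had both a larger share of cells with Vip and more Vip per such cell, with overlapping ranges.

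The Vip contrast was carried by active cells. Of the 51 active cFOS+ cells 17 (33.3%, 20.8 to 47.9) had 100 CPM or more, against 3 of 27 active cFOS- cells (11.1%, 2.35 to 29.2). Pooled levels there were 4090 against 515 CPM (log2 2.99). In silent cells 1 of 17 cFOS+ and 1 of 32 cFOS- cells had Vip, at 17857 and 2151 CPM, so the silent log2 ratio of 4.12 is a comparison of these 2 cells. The top cell held 72.7% of all cFOS- Vip, and without the top cell of each side the log2 ratio was 5.22. At night, pooled Vip was 4263 against 1808 CPM (log2 1.24), and whether the day and night ratios differ was not tested.

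Cells with Vip came largely from one stretch of cell numbers. The longest run of day cells without a night cell between them, S327 to S421, held 34 cFOS+ and 22 cFOS- cells and 17 of the 22 cells with Vip: 14 with the cFOS+ label (41.2%) and 3 with the cFOS- label (13.6%). Outside it, 4 of 34 cFOS+ (11.8%) and 1 of 37 cFOS- cells (2.70%) had Vip, a log2 ratio of 2.00 against 4.63 within it. The direction was thus the same inside and outside the run, on few cells outside. What the numbers stand for is not stated in the labels, and the part of slice or date in the contrast was not tested.

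**Figure D2:**
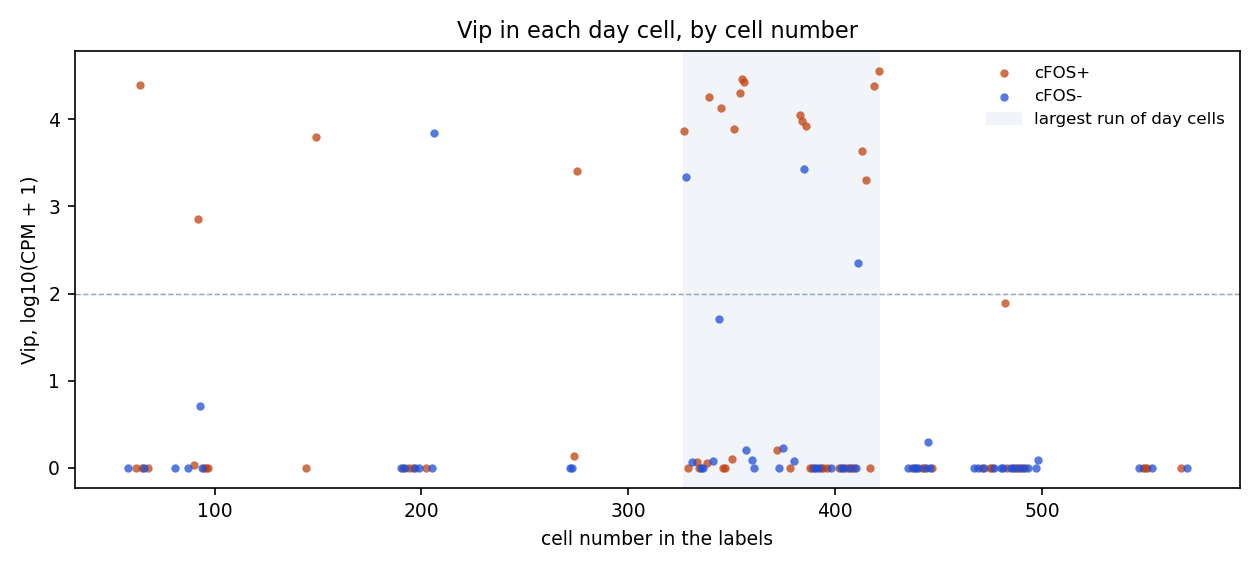
Vip in each day cell, as log10 of CPM + 1, against the cell number in the labels, with cFOS+ cells in orange, cFOS- cells in blue, the run S327 to S421 shaded and the dashed line near 100 CPM. Above the line, 14 of 18 cFOS+ and 3 of 4 cFOS- cells lie in the shaded run.

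Nms, which encodes neuromedin S and marks a large set of SCN neurons, was higher on the cFOS+ side in both firing classes. Pooled Nms was 784 CPM (781 to 786) against 287.7 CPM (286.05 to 289.3), 2.72-fold higher (log2 1.44, active 1.20, silent 1.80). At 100 CPM or more stood 36 of 68 cFOS+ cells (52.9%, 40.4 to 65.2) and 18 of 59 cFOS- cells (30.5%, 19.2 to 43.9). The median cell had 178 CPM with the cFOS+ label and 0 with the cFOS- label, and the highest cells 7726 and 3401 CPM. More of the cFOS+ cells had Nms, and no single cell held over 13.3% of either sum.

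The Nms shares were 26 of 51 against 7 of 27 in active cells and 10 of 17 against 11 of 32 in silent cells. Under the cFOS+ label Nms also went with Vip, at 100 CPM or more in 13 of the 18 cells with Vip. Of the 4 cFOS- cells with Vip, 1 had Nms at that level. Among cells without Vip it was in 23 of 50 cFOS+ (46.0%, 31.8 to 60.7) and 17 of 55 cFOS- cells (30.9%, 19.1 to 44.8), and the pooled log2 ratio was 0.87. The cFOS+ side was higher in Nms with and without Vip cells, by less without them. The ratio was 2.48 among lower and 0.38 among higher cell numbers.

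Avp, which encodes the vasopressin of the dorsal SCN shell, did not separate the labels by share of cells. It was at 100 CPM or more in 22 of 68 cFOS+ (32.4%, 21.5 to 44.8) and 23 of 59 cFOS- cells (39.0%, 26.5 to 52.6). Pooled levels were 4089 against 3134 CPM (log2 0.38, active 1.96, silent 0.41). Vip and Avp kept apart in cFOS+ cells, with both at 100 CPM or more in 0 of 68 cells, where 18 had Vip and 22 had Avp. In cFOS- cells Avp was at that level in 1 of the 4 cells with Vip and 22 of the 55 without, too few with Vip to tell.

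**Figure D3:**
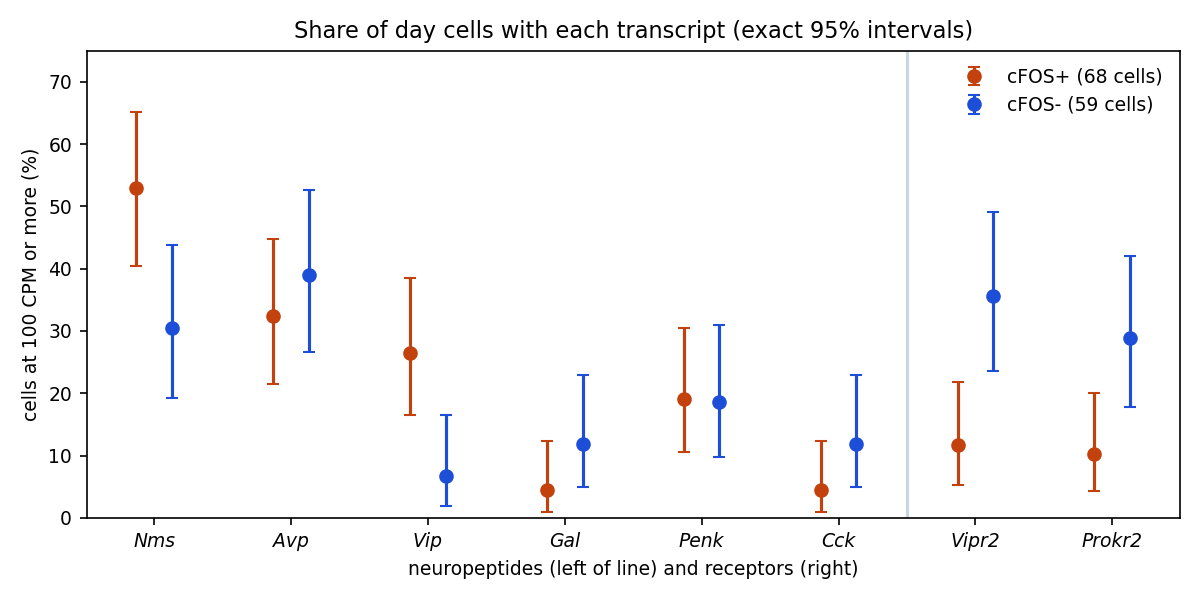
Share of day cells at 100 CPM or more of 6 neuropeptides and 2 receptors, for 68 cFOS+ (orange) and 59 cFOS- cells (blue), with exact 95% intervals over cells. Nms and Vip have larger shares under cFOS+, and Vipr2 and Prokr2 under cFOS-. The intervals of all but Vip and Vipr2 overlap, those of Avp, Penk, Cck and Gal widely.

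Of all 17 measured peptides, 7 were higher in cFOS+ cells, beside 48.6% of all genes. Prok2, which encodes prokineticin 2, was at 67.5 against 89.1 CPM and at 10 CPM or more in about the same share of cells (20 of 68 and 17 of 59). Cck, the cholecystokinin gene, was at 30.6 against 127 CPM and at 10 CPM or more in 3 cFOS+ and 12 cFOS- cells (log2 -2.02, active -2.35, silent -1.72). Penk, the enkephalin precursor, was at 111 against 418 CPM, although about the same share of cells had it at 100 CPM or more (13 of 68 and 11 of 59). Gal, which encodes galanin, was at that level in 3 cFOS+ and 7 cFOS- cells. Cartpt, another peptide precursor, was at 183 against 57.0 CPM, with 7 and 9 cells at 10 CPM or more. Trh, the thyrotropin-releasing hormone gene, was at 4.31 against 647 CPM, but 10 CPM or more was reached by only 2 cells of each label and 1 cell held 77.4% of the cFOS- sum.

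The receptors for VIP and prokineticin went the other way from Vip. Vipr2, the receptor through which VIP acts in the SCN, was at 75.4 CPM (74.6 to 76.2) in cFOS+ and 328.2 CPM (326.4 to 329.9) in cFOS- cells, 4.31-fold higher in cFOS- cells (log2 -2.11, active -1.92, silent -2.70). At 100 CPM or more stood 8 of 68 cFOS+ cells (11.8%, 5.22 to 21.9) and 21 of 59 cFOS- cells (35.6%, 23.6 to 49.1). The shares were 6 of 51 against 10 of 27 in active cells and 2 of 17 against 11 of 32 in silent cells, so the receptor was less frequent under cFOS+ in both classes. The median cell had 0 CPM under both labels, and the highest cells 2363 (cFOS+) and 1991 CPM (cFOS-). The ratio was close to the same among lower (-2.18) and higher (-1.99) cell numbers, inside (-1.91) and outside (-2.23) the run S327 to S421, and without cells with microglia markers (-2.02). At night the log2 ratio was -0.32, and the difference between day and night was not tested.

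Prokr2 (chr2:132337733-132385447), the receptor of prokineticin 2, an output signal of the SCN, was at 133.1 CPM (132.01 to 134.1) against 373.1 CPM (371.2 to 374.95), a log2 ratio of -1.48. At 100 CPM or more stood 7 of 68 cFOS+ cells (10.3%, 4.24 to 20.1) and 17 of 59 cFOS- cells (28.8%, 17.8 to 42.1). In active cells the counts were 7 of 51 and 8 of 27. Of the silent cells, none of the 17 cFOS+ cells had a Prokr2 read, with an exact interval of up to 19.5% of cells, and 9 of 32 cFOS- cells had 100 CPM or more. One cell held 59.02% of the cFOS+ sum, and the ratio was -0.57 among higher cell numbers. Over all 16 measured receptors of the list, 7 were higher in cFOS+ cells (median -0.40), beside 48.6% of all genes. Within active cells 5 were (-0.60), beside 52.4% of all genes, and within silent cells 7 (-0.10), beside 45.6%. Past 2-fold were 3 on the cFOS+ side and 5 on the cFOS- side, beside 12.1% and 14.2% of all genes, with Npy5r (log2 -2.53) among the 5. Among lower cell numbers 10 of 16 were higher, so the list did not go 1 way in every set of cells.

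Among genes for making GABA and for releasing peptides, Gad2 and Ptprn were higher in cFOS+ cells by less than 2-fold and in a larger share of cells. Gad2, which encodes an enzyme that makes GABA, the transmitter of SCN neurons, was at 421.7 CPM (419.8 to 423.6) against 228.35 CPM (226.9 to 229.8), a log2 ratio of 0.88 (active 0.71, silent 1.04). It reached 100 CPM in 45 of 68 cFOS+ cells (66.2%, 53.7 to 77.2) and 24 of 59 cFOS- cells (40.7%, 28.1 to 54.3). Ptprn, a protein of dense-core vesicles, was at 437.97 CPM (436.04 to 439.9) against 254.6 CPM (253.1 to 256.2), with medians of 386.8 and 152.8 CPM. It reached 100 CPM in 57 of 68 cFOS+ (83.8%, 72.9 to 91.6) and 37 of 59 cFOS- cells (62.7%, 49.1 to 74.96), and in 68.3% of all pairs of a cFOS+ and a cFOS- cell the cFOS+ cell had more. Ptprn stood at log2 ratios of 0.83 and 0.74 among lower and higher cell numbers, and Gad2 at 0.51 and 1.33, so both kept their direction.

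Vgf, a secreted granule protein that activity induces, was at 369 against 240 CPM (log2 0.62, active 0.68, silent 0.41). Cadps2, a priming factor for dense-core vesicles, was at 247.5 against 102.5 CPM (log2 1.26), but at 0.36 without the cells with Vip. Pcsk1, a protease that cuts peptide precursors, was at 57.3 against 28.9 CPM (0.96, with 0.37 for lower and 2.12 for higher cell numbers). Yet of the 32 dense-core vesicle and secretion genes, 19 were higher in cFOS+ cells, beside 48.6% of all genes, with a median of 0.07 beside -0.03. Within active cells 22 were (0.29), beside 52.4% of all genes, and within silent cells 16 (0.02), beside 45.6%. By its median over all day cells the list thus did not lie far from all genes. Among the 9 measured genes of GABA and glutamate identity, 5 were higher (0.24), with 3 within active (-0.29) and 5 within silent cells (0.30). Abat, which breaks GABA down, was lower in cFOS+ cells (206.2 against 384.6 CPM).

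Transcription factors that define the SCN were more often lower than higher in cFOS+ cells when active and silent cells were pooled. Of 16 measured, 3 were higher in cFOS+ cells, with a median log2 ratio of -0.62, beside 48.6% of all genes. The median was -0.56 within active and -0.30 within silent cells, with 6 and 7 of 16 higher beside 52.4% and 45.6% of all genes, so the silent count lay near that of all genes, and it was -0.41 for lower cell numbers and -0.17 for higher ones. Six3, a homeobox factor needed for SCN development, was at 59.2 against 92.2 CPM, and Zfhx3, a zinc finger homeobox factor of SCN timekeeping, at 130 against 198 CPM. Zfhx3 had a log2 ratio of 0.87 for lower and -1.07 for higher cell numbers, and Six3 at -1.15 and 0.19, so single factors turned sign between those sets.

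Core clock genes gave no shift as a list, with 15 of 26 higher in cFOS+ cells, beside 48.6% of all genes, and a median of 0.16. Cry1, a repressor of the clock, was at 210 against 124 CPM (log2 0.75, active 1.22, silent 0.40). Dbp, an output of the clock, was at 205.3 against 288.5 CPM (-0.49). Per1, a clock gene that light also induces, was at 88.6 against 79.9 CPM (0.15), and with -0.65 in silent cells its sign depended on the firing class.

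Ion channels, which set firing, were mixed. Of 40 potassium channel genes, 21 were higher in cFOS+ cells (median 0.11), beside 48.6% of all genes. Within active cells 26 were (0.55), beside 52.4% of all genes, and within silent cells 22 (0.22), beside 45.6%. Kcnn3, a calcium-activated channel, was at 28.7 against 9.94 CPM and Kcnt1, a sodium-activated one, at 99.4 against 41.8 CPM. For lower cell numbers their log2 ratios were 3.67 and 2.51, and for higher ones 0.23 and 0.49. Of 29 calcium and HCN channel genes and calcium pumps, 10 were higher (median -0.22), beside 48.6% of all genes. Atp2b2, a pump that clears calcium from the cell, was at 78.4 against 204 CPM, a log2 ratio of -1.37 (active -1.75, silent -1.05; lower numbers -1.15, higher -1.45). None of 60 nuclear genes of oxidative phosphorylation passed 2-fold in either direction (25 higher, median -0.07), beside 12.1% and 14.2% of all genes. The shares over all genes were not matched for level.

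Receptors and signalling genes also had members on both sides. Of 13 GABA-A receptor subunits, 7 were higher in cFOS+ cells, beside 48.6% of all genes. Gabrg3, a gamma subunit, was at 37.9 against 131.1 CPM (log2 -1.76, active -2.68, silent -0.65). Of 24 glutamate receptor genes 10 were higher, and of 16 sodium channel and leak genes 7, beside the same share of all genes. Nalcn, the sodium leak channel that depolarizes SCN neurons, was at 143 against 258.3 CPM (-0.84, active -1.03, silent -0.68). The leak channel thus stood lower in cFOS+ cells of both firing classes.

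Of 29 genes of cyclic AMP and G protein signalling, 17 were higher in cFOS+ cells (median 0.16), beside 48.6% of all genes. Of 42 of the CREB and kinase pathway 17 were (median -0.05). Rgs4, which shortens G protein signals, was at 278.5 against 132.6 CPM (log2 1.06, active 1.65, silent 0.61) and at 10 CPM or more in 23 of 68 and 13 of 59 cells. Gem, a small GTPase that activity induces and that restrains calcium channels, was at 323 against 211 CPM (0.61, with 1.83 for lower and 0.23 for higher cell numbers) and at that level in 40 of 68 and 23 of 59 cells. Creb1, the factor that binds the cyclic AMP response element, was at 21.1 against 51.1 CPM (-1.24, but -0.31 for higher cell numbers), with 8 and 11 cells at 10 CPM or more. Of 29 heat shock and unfolded protein response genes, 21 were higher in cFOS+ cells, beside 48.6% of all genes, with a median of 0.19. None was past 2-fold upward, beside 12.1% of all genes, a share not matched for level.

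The phosphate transporters were of interest because of the series' title. Slc20a2, a sodium-dependent importer, was at 41.5 CPM in cFOS+ and 47.6 CPM in cFOS- cells (log2 -0.19), and at 10 CPM or more in 13 of 68 and 15 of 59 cells. Its log2 ratio was 0.11 within active and -1.84 within silent cells, and 0.79 among lower and -2.16 among higher cell numbers. Slc20a1, its paralogue, was at 140 against 195 CPM (-0.47, active -0.68, silent -0.27). Xpr1, the phosphate exporter, was at 80.7 against 89.0 CPM (-0.14, active -0.70, silent 0.78). None of the 3 was past 2-fold over all day cells.

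Across all genes, the differences by label within active and within silent cells were mostly not the same ones. Of 8749 genes at 20 CPM or more in one side, 716 (8.18%) were at least 2-fold higher in cFOS+ and 939 (10.7%) in cFOS- cells. Within active cells it was 1403 (15.9%) and 1417 (16.1%) of 8803 genes, and within silent cells, with fewer cells summed, 1440 (16.3%) and 1819 (20.6%) of 8815 genes. Among 7758 genes measured in both classes, 2.93% were past 2-fold in cFOS+ cells of both and 3.39% in cFOS- cells of both. Opposite calls were about as frequent: 266 genes were past 2-fold to cFOS+ in active and to cFOS- in silent cells, and 228 the reverse.

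The log2 ratios of the 2 classes, which share no cells, had a Pearson's r of 0.02 and a Spearman's rho of 0.01 over these 7758 genes. For the 229 of them at 500 CPM or more over all day cells together, r was 0.43 and rho 0.19. Vip weighs heavily in this r, with ratios far beyond the standard deviations of 0.43 (active) and 0.46 (silent) over these genes. Its silent ratio rests on 1 cell of each label, and r without Vip was not calculated. In this set Vip and Nms were past 2-fold to cFOS+ in both classes, Crip2 to cFOS-, and none was past it in opposite ways. Crip2, which encodes a LIM-domain protein, was at 356.8 against 658.6 CPM over all day cells (log2 -0.88, and -0.55 without top cells) and was named after its values were seen, as was Nms.

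**Figure D4:**
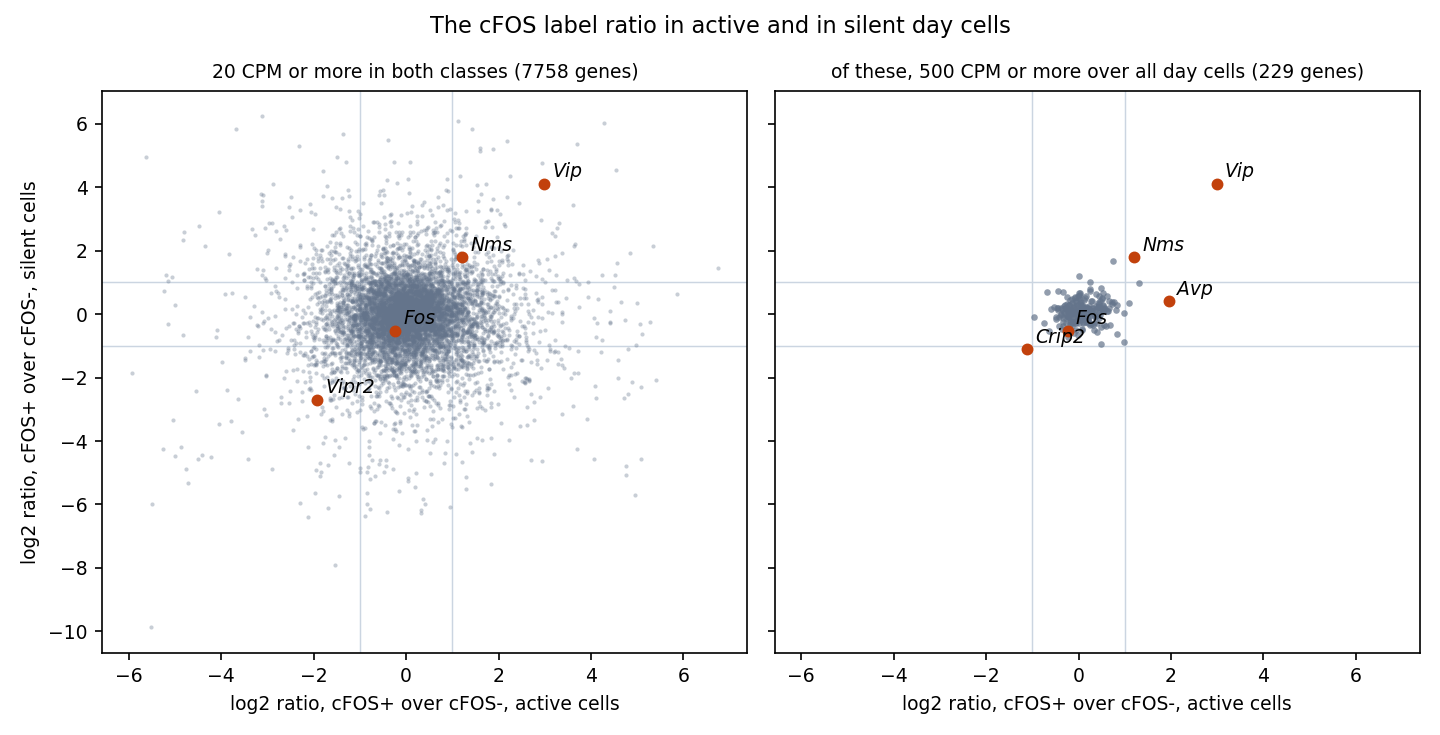
Log2 ratio of cFOS+ over cFOS- cells within active (x axis) and within silent day cells (y axis), for 7758 genes at 20 CPM or more in both classes (left) and the 229 of them at 500 CPM or more over all day cells (right), with lines at 2-fold. The cloud on the left has no slope (r 0.02), and on the right Vip and Nms lie above both lines.

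A rule on steady direction named the 12 genes that stood highest on each side. It asked for the same sign in both firing classes, lower and higher cell numbers, the mean over cells, without the top cells and in the share of cells, and 1079 (12.9%) and 991 (11.9%) of 8336 genes had that for cFOS+ and cFOS-. The named genes are the extremes of those, so their values are a description. On the cFOS+ side, besides Vip, they were Mlst8, Bricd5, Ankrd23, Wdr53, Micall1, Rrp12, Fam208b, Stk38l, Ctla2a, Gucd1 and Fam179a. They were found in a minority of cells: Mlst8, a subunit of the mTOR complexes, was at 50.5 against 1.497 CPM and at 10 CPM or more in 15 of 68 and 2 of 59 cells. Ankrd23, an ankyrin-repeat protein gene, was at 98.3 against 6.92 CPM (21 and 8 cells), and Rrp12, a factor of ribosome assembly, at 74.5 against 8.65 CPM (19 and 7 cells). Micall1, which acts in endosome recycling, was at 62.3 against 4.14 CPM (18 and 3 cells), and Ctla2a, a cysteine protease inhibitor, at 49.4 against 0.97 CPM (17 and 1 cells).

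On the cFOS- side they were Vwa5b1, Recql, Pde7b, Pyroxd1, Fastkd1, Prmt8, Hmgcll1, Tnrc18, Alad, Nrxn2, Bcl2 and Fam181a. Pde7b, which breaks down cyclic AMP, was at 4.62 against 51.8 CPM (log2 -3.23) and at 10 CPM or more in 6 cFOS+ and 12 cFOS- cells. Alad, an enzyme of heme synthesis, was at 20.8 against 120 CPM (9 and 22 cells). Nrxn2, a presynaptic adhesion protein, was at 6.45 against 36.2 CPM (15 and 21 cells). Prmt8, a brain arginine methyltransferase, was at 3.62 against 23.8 CPM (5 and 11 cells), and Bcl2, which restrains apoptosis, at 7.42 against 41.4 CPM (8 and 9 cells). As on the other side, most cells of both labels had under 10 CPM of each of these genes.

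Some of the named genes are not independent of each other. Mlst8 and Bricd5 overlap by 1586 bases on opposite strands of chromosome 17 (GENCODE M21, GRCm38), and all 13 cells with 10 CPM or more of Bricd5 had as much Mlst8. Recql, a DNA helicase gene, and Pyroxd1 overlap by 12916 bases on opposite strands of chromosome 6 and shared 18 cells, of 20 with Recql and 19 with Pyroxd1. Micall1 overlaps 1700088E04Rik by 7552 bases on opposite strands, and 17 of its 21 cells had both. The sources used here do not say if the counting used strand, so the reads of each pair cannot be told apart. At night, Mlst8 had a log2 ratio of -0.66, Pde7b of 1.51, Recql of -1.97 and Ctla2a of 1.34, so the night cells went the same way for some and the other way for others.

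Transcripts of glia and of other neurons were present in many libraries. The sum of 11 microglia markers was 100 CPM or more in 26 of 68 cFOS+ (38.2%, 26.7 to 50.8) and 29 of 59 cFOS- cells (49.2%, 35.9 to 62.5), with 5 of 17 against 18 of 32 in silent cells and 21 of 51 against 11 of 27 in active cells. The pooled sum was 1370 CPM in cFOS+ and 1452 CPM in cFOS- cells, single cells ran from 0 to 34382 and from 0 to 21872 CPM, and all 11 markers had reads on both sides. Il1a, the interleukin 1 alpha gene, was at 112.9 against 335.6 CPM. Astrocyte markers summed to 855 and 691 CPM and oligodendrocyte markers to 468 and 573 CPM in cFOS+ and cFOS- cells. Without the 55 cells with microglia markers, Vip stood at a log2 ratio of 3.09, Nms at 1.58, Prokr2 at -2.58, Ptprn at 0.83 and Gad2 at 0.60. The directions of these genes were thus the same in the 72 cells left. Of 6 measured markers of other hypothalamic neurons, 5 were higher in cFOS+ cells, beside 48.6% of all genes. The sum of the markers of this list was 100 CPM or more in 23 of 68 cFOS+ and 18 of 59 cFOS- cells. Pomc, the precursor of melanocortins, was at 352.4 against 23.3 CPM, with one cell holding 47.3% of the cFOS+ sum and with 10 CPM or more in 12 cFOS+ and 14 cFOS- cells. The part of these transcripts in the contrasts of other genes was not tested.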

How the data were processed

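The authors deposited raw counts per gene symbol for every single cell, and a normalized signal that equals the counts divided by 1 factor per cell in every column (relative tolerance 1e-06). STAR, DESeq2 and the build GRCm38.p4 are listed, per the submitters' processing notes, with no role stated. Which tool counted reads, on which annotation and whether by strand: not given in the sources used here. Every column had a sample, and no cell was filtered.

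Counts of the cells of a side were summed and scaled to CPM, and ratios are log2 of (CPM + 1) over (CPM + 1). Genes entered at 20 CPM in one side, list members at 5 CPM. With no animal or slice named, each side was 1 sample and nothing was tested; the intervals cover counting error only, and reads carry no molecular identifiers. Depth was 3222140 to 14129853 reads per cell. The cells, the lists (23 gene and 7 marker lists), the level of 100 CPM for shares and the naming rule were chosen with earlier results of these data known. The rule named genes other than predicted, ribosomal protein and mitochondrial ones with 20 CPM, 10 CPM in 15% of the cells of the higher side and 1 direction in every split, ranked by the smallest log2 ratio, 12 a side, with up to 4 members of each list; Egr1, Junb, Nr4a1, Dusp1, Vgf, Per1, Gal, Penk, Nms, Prok2, Sst, Synpr and Crip2 were added after their values were seen. The ratio calculation was run on simulated counts of known fold. These varied less between cells than the nearly all-or-none transcripts here, so the run bears on the calculation only. Night values leave out 2 cells with near-identical profiles. Python 3.11.15, pandas 2.3.3, numpy 2.4.6 and scipy 1.17.1 were used.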

Additional observations from a re-analysis of the deposited data

Results flagged for a closer look

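For 5 lists the median label ratio had opposite signs in active and silent day cells, at least 0.3 from 0 in each. These were picked by that size alone, each class is 1 sample, and the difference was not tested. The 11 mitochondrially encoded genes had a median log2 ratio (cFOS+ over cFOS-) of 0.35 within active and of -0.34 within silent cells. Within active cells all 11 were higher in cFOS+ cells, beside 52.4% of all genes, and within silent cells 1 was, beside 45.6%. None of the 11 passed 2-fold in either class. The 17 neuropeptide genes were at 0.78 within active and -0.31 within silent cells. Only their median turned, as 13 of the 17 had the same sign in both classes. The 14 inflammatory cytokine genes were at -1.86 within active and 0.51 within silent cells, and the 11 microglia markers at -0.69 and 0.40. The 12 astrocyte markers were at 0.56 within active and -1.68 within silent cells, where Aldh1l1 and Gja1 had no read in the 17 cFOS+ cells. Of the 12 astrocyte markers, 7 had the same sign in both classes.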

How the results depend on the processing

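No paired analysis was possible because the labels give each day cell its own number and no 2 day groups share one. With 1 sample a side and 17 to 51 cells a group, sums of rare transcripts rest on few cells. Under 17 alternatives, 2 of them chosen after seeing the data (without cells with 100 CPM or more of Vip, and without cells S327 to S421), 94 of 138 single genes kept their direction in every setting. Among them were Vip, Nms, Vipr2, Prokr2, Gad2 and Ptprn, and the 24 genes of the naming rule, which had asked for 1 direction in several of these settings. Most of the other genes were list members ranked by the same smallest log2 ratio, Vipr2, Prokr2, Gad2 and Ptprn among them. A changed pseudocount or minimum CPM cannot turn a gene's sign, so the count of 94 is a description. Fos kept its direction in 16 settings and was 0.21 among higher cell numbers. For Vip, the ratio without cells with Vip was 0.50. It came from cells with at most 76.9 CPM of Vip, so this setting does not bear on the Vip contrast. The number of genes at least 2-fold higher, 716 in cFOS+ and 939 in cFOS- cells, was 429 and 578 with a pseudocount of 10, 1435 and 1688 with a minimum of 5 CPM, and 2113 and 2284 with no minimum. It was 1284 and 1418 without cells with microglia markers, 1384 and 1492 among lower and 1462 and 1472 among higher cell numbers, and 1336 and 1593 without cells S327 to S421, all with fewer cells summed. Without the top cell of each side it was 711 and 584, which turned the larger count to the cFOS+ side. In active cells the cFOS+ count was 2431 with a minimum of 5 CPM, 3272 with no minimum and 2451 among lower cell numbers, and the cFOS- count 664 without top cells and 2568 with no minimum. In silent cells the cFOS+ count was 953 without top cells, 2204 with a minimum of 5 CPM, 2642 with no minimum and 2233 among higher cell numbers, and the cFOS- count 2819 and 3549 with a minimum of 5 CPM and with none. Among further list members whose 2-fold ratio changed sign, Cdh7 was at 1.87, Olig1 at 0.73, Rgs14 at 0.75, Slc17a6 at 2.52 and Zfp36 at 0.47 without cells with microglia markers, Gjb6 at 2.69 and Olig1 at 0.87 among higher and Hcn3 at 0.55 and Trh at 2.25 among lower cell numbers, Fxyd7 at 0.11 without the cells with fewest genes, and Grm2 at 0.0685 without cells S327 to S421. The cause was not tested.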

Other observations

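Synpr, which encodes a synaptic vesicle protein and was picked after its values were seen, went with Vip among day cells. It was at 100 CPM or more in 15 of the 18 cFOS+ cells with Vip (83.3%, 58.6 to 96.4), and in 1 of the 4 cFOS- cells with Vip. Among cells without Vip it was in 9 of 50 cFOS+ (18.0%, 8.58 to 31.4) and 10 of 55 cFOS- cells (18.2%, 9.08 to 30.9), close to the same share. Pooled over all day cells it was at 430 against 158 CPM. Gad2 was at 100 CPM or more in 31 of 50 cFOS+ and 22 of 55 cFOS- cells without Vip, and Ptprn in 42 of 50 and 35 of 55.

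Sst, the somatostatin gene, was at 119 against 715 CPM by day and at 484 against 155 CPM at night, with 7 of 68 cFOS+ and 7 of 59 cFOS- day cells at 10 CPM or more. The top day cell held 52.9% of the cFOS- sum, and the difference between day and night was not tested.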
